A study of Mus musculus with 8 samples.

Results

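The genes described here encode enzymes and structural proteins that write, read, erase or move chromatin marks, chosen by gene symbol. The rule took every annotated symbol that begins with Dnmt, Hdac, Smarc, Kdm, Kmt, Setd, Suv39, Cbx, Ezh, Arid or Brd, every Chd symbol followed by a digit, and Eed, Suz12 and Rnf2. It found 65 genes on the array, carried by 103 probes, and 58 of them had enough values to be tested among 14015 features in all, of which 8726 were named genes. The other 7, namely Chd4, Cbx1, Hdac6, Kmt5b, Setd1a, Smarcd1 and Smarce1, had fewer than 3 values in at least 1 group and were not tested. Of the 58, 52 had a value on all 8 arrays and 24 of the 65 genes were carried by several probes.

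HM-1 and R1 are mouse embryonic stem (ES) cell lines, and every array of the study held RNA from both, in different dyes. There were 4 arrays of untreated cells and 4 of cells given nocodazole, a microtubule poison that arrests dividing cells in mitosis, at a dose and for a time that the labels do not give. HM-1 carried the dye Cy5 on 5 arrays (untreated replicates 1 and 2, nocodazole replicates 1 to 3) and Cy3 on 3 arrays (untreated replicates 3 and 4, nocodazole replicate 4), while the design text speaks of dye swaps on 50% of arrays. The protocol text also names organs and a reference pooled from control animals, which does not match the channel labels. Each value is a log2 ratio between the lines, set to an array median of 0, and the direction of the deposited ratio is not stated. Positive and negative below are the signs of the deposited table, so no line can be called higher. Because drug-treated and drug-free RNA of a line were never put on a common array, a shift between conditions tells how the line ratio moved and not how either line responded. The labels do not say whether replicates were separate cultures, so the p-values cover array-to-array spread alone, possibly of technical origin.

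DNA methyltransferases copy methyl groups onto new DNA strands or add them at fresh sites, and histone deacetylases, methyltransferases and demethylases set and remove the marks on histone tails. Polycomb and heterochromatin proteins hold developmental genes and repeats silent, while SWI/SNF, CHD and bromodomain proteins open, slide or read nucleosomes. In ES cells this machinery keeps the genome open to many fates and silences lineage genes until they are needed, and its output, DNA methylation above all, is known to drift in culture.

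As a group the chromatin regulators lay near the median of all probes, which was set to 0 on each array, and no single gene passed the test in either condition. A group median near 0 gives their place among all probes and not equal amounts in HM-1 and R1. The median fitted log2 ratio over the 58 genes was -0.014 untreated and 0.002 with nocodazole, against 0.000 and -0.004 over all 14015 features. In untreated cells 27 of the 58 had a positive value, and with nocodazole 29 of 58. With the arrays that held HM-1 in Cy3 read with their sign turned, the medians were 0.027 and 0.011, with 34 and 31 of 58 positive. The test was limma over all 8 arrays, with a coefficient for each condition and a term for the dye of HM-1, and its p-values were adjusted over all 14015 features by the Benjamini-Hochberg method. The dye term balances the nocodazole group, in which 3 of the 4 arrays had HM-1 in Cy5, so a fitted ratio there can differ from the plain mean of the arrays. The fitted ratio and the mean with nocodazole differed in sign for 10 of the 58 genes: Brd8, Cbx2, Ezh1, Hdac2, Hdac4, Kdm2a, Kdm5b, Kmt5c, Setd5 and Smarcd2. At an adjusted p under 0.05 no chromatin regulator was called by limma in any of the 4 comparisons: 0 of 58 untreated, where 0% of all features were called, 0 of 58 with nocodazole (0% of features), 0 of 58 over both conditions together (0%) and 0 of 58 for the change between conditions (0%). The lowest adjusted p of any chromatin regulator was 0.755 untreated, 0.999 with nocodazole, 0.894 over both conditions and 0.997 for the change.

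Before adjustment, and with the signs as deposited, a few of these genes had a p under 0.05. In untreated cells limma gave 1 of the 58 genes, Chd6, against 6.33% of all features. With nocodazole it gave 5, Brd1, Dnmt3a and Hdac9 with positive and Suv39h2 and Eed with negative values, against 2.91% of features. Over both conditions it gave 3, Brd1, Dnmt3a and Suv39h2, against 5.59%. For the change between conditions it gave 0 of 58, against 3.33%.

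As deposited, few of these genes kept 1 sign on all arrays, as was the case for all features. Kdm4b was the 1 of the 58 with the same sign on all arrays, a pattern that 0.913% of features had. On the 4 untreated arrays 7 of the 58 kept 1 sign on every array with a value (Brdt, Dnmt1, Kdm4b, Arid2, Arid3b and Arid5b positive, Chd6 negative), against 14.7% of features. On the nocodazole arrays 4 did (Dnmt3a, Kdm4b and Kmt2b positive, Smarcal1 negative), against 11.5%. In 0 of the 58 genes did the untreated values and the nocodazole values not overlap, against 2.73% of features.

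With the signs as deposited, the arrays bounded the difference for many of these genes. In untreated cells the 95% interval of the ratio lay within 1.5-fold either way for 35 of the 58 genes, against 45.2% of features, and within 2-fold for 46, against 68.9%. With nocodazole it lay within 1.5-fold for 32 genes, against 43.7%, and within 2-fold for 47, against 66.7%. For the change between conditions it lay within 2-fold for 41 genes, against 53.4% of features. With the Cy3 arrays turned the untreated counts were 34 within 1.5-fold (44.7% of features) and 47 within 2-fold (68%). The nocodazole counts were then 29 (44%) and 47 (66.3%), and that for the change within 2-fold was 41 (52.9%). A bound on a single gene can depend on the reading: the untreated ratio of Suv39h2 was -0.060 as deposited and 0.54 turned. The standard error of the untreated log2 ratio ran from 0.087 to 1.11 over the 58 genes and had a median of 0.16.

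**Figure D1:**
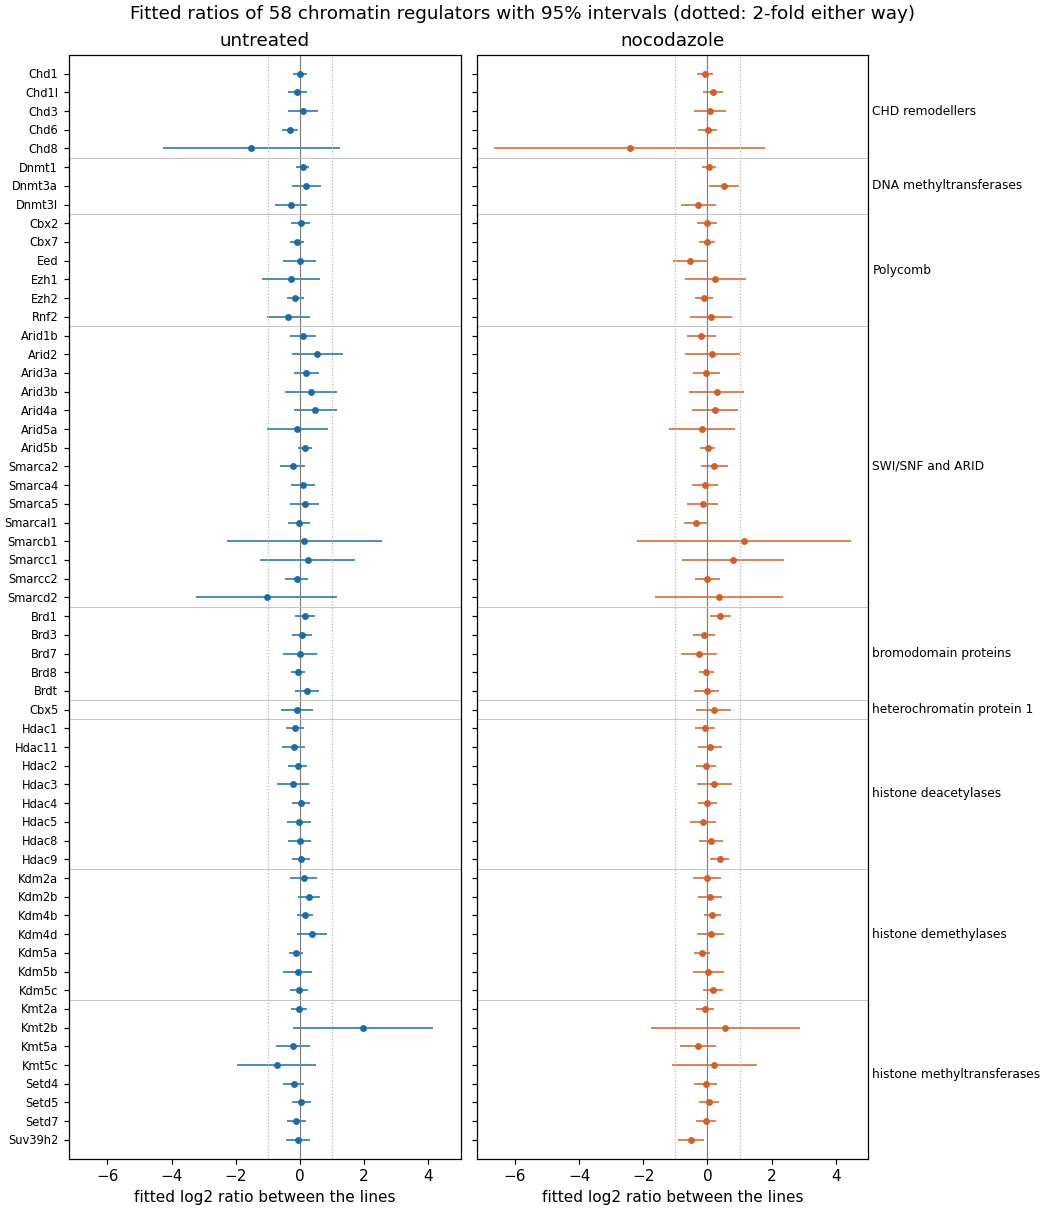
Fitted log2 ratio between the lines (horizontal axis, points) with its 95% interval (bars) for each of the 58 chromatin regulators, grouped by family, in untreated cells (left) and with nocodazole (right). The dotted lines mark a 2-fold difference either way. Most intervals lie inside them and cross 0, and Chd8, Kmt2b, Smarcb1, Smarcc1 and Smarcd2 have the widest.

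Of the DNA methyltransferases all 3 on the array were tested, and Dnmt3b was not analysed here. Dnmt1, the maintenance enzyme that copies methylation after replication, had log2 ratios of 0.068, 0.027, 0.097 and 0.14 on untreated replicates 1 to 4 and 0.20, -0.061, -0.015 and -0.002 on nocodazole replicates 1 to 4. Its values were small on every array, and the groups overlapped. The fitted ratio was 0.083 (95% interval -0.13 to 0.29) untreated and 0.037 (95% interval -0.19 to 0.26) with nocodazole, so a difference of 1.5-fold lay outside both intervals. Its standard error, 0.087 untreated, was the lowest of the 3 enzymes.

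Dnmt3a, an enzyme that methylates DNA at new sites, was measured by 5 probes. Their averages were -0.35, -0.65, 1.12 and 0.68 on the untreated arrays and 0.40, 0.23, 0.011 and 0.49 on the nocodazole arrays. The untreated values were negative on both arrays with HM-1 in Cy5 and positive on both with HM-1 in Cy3, and they enclosed the nocodazole values. The mean was 0.20 ± 0.84 (SD, n = 4) untreated and 0.28 ± 0.21 (SD, n = 4) with nocodazole. Limma's fitted ratio with nocodazole was 0.51 (95% interval 0.036 to 0.99), with an unadjusted p of 0.0387 and an adjusted p of 0.999. The 5 probes did not move together: on untreated replicate 3 the first stood at 4.27 and the last 3 at 0.19, 0.015 and -0.006. The steadiest probe gave 0.45, -0.53, -0.006 and 0.022 untreated and 0.002, 0.16, -0.19 and 0.065 with nocodazole.

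Dnmt3l, the partner without catalytic activity that stimulates Dnmt3a in germ cells and ES cells, gave 0.24, -0.14, -0.34 and -0.84 untreated and 0.82, -0.24, -0.31 and -0.71 with nocodazole. In both groups it was lowest where HM-1 was in Cy3, its highest value was on nocodazole replicate 1, and the groups overlapped. Its fitted ratio was -0.27 (95% interval -0.77 to 0.24) untreated and -0.29 (95% interval -0.83 to 0.25) with nocodazole.

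Of the Polycomb genes all 6 on the array were tested, and Suz12 was not analysed here. Ezh2, the main methyltransferase of the complex that marks histone H3 for Polycomb silencing, gave -0.099, -0.16, -0.36 and 0.068 untreated and -0.005, -0.16, 0.15 and -0.31 with nocodazole. The groups overlapped, and the fitted ratio was -0.14 (95% interval -0.41 to 0.13) untreated and -0.12 (95% interval -0.40 to 0.17) with nocodazole. Ezh1, the less active form of the same enzyme, spread far more, at -1.63, -0.94, -0.16 and 1.63 untreated and 0.32, -0.50, -0.19 and 0.11 with nocodazole. Its untreated arrays ran from strongly negative on replicate 1, with HM-1 in Cy5, to strongly positive on replicate 4, with HM-1 in Cy3. As deposited, its untreated interval, -1.18 to 0.62, reached past 2-fold on the negative side only. With the Cy3 arrays turned its untreated ratio was -1.01, with an unadjusted p of 0.0142 and an adjusted p of 0.352 by limma.

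Eed, the subunit of the same complex that binds its product mark, gave 0.28, -0.10, -0.28 and 0.080 untreated and 0.074, -0.008, -1.09 and -0.84 with nocodazole. As deposited, it was near 0 on nocodazole replicates 1 and 2 and low on replicates 3 and 4, where HM-1 carried different dyes. Both probes were low on those arrays, at -1.18 and -1.01 on replicate 3 and at -1.11 and -0.57 on replicate 4. Limma's fitted ratio with nocodazole was -0.55 (95% interval -1.09 to -0.005), with an unadjusted p of 0.0483 and an adjusted p of 0.999. With the Cy3 arrays turned that ratio was 0.083, with an unadjusted p of 0.771 and an adjusted p of 0.966 by limma, so the negative value depends on the reading. As deposited, the mean was -0.004 ± 0.24 (SD, n = 4) untreated and -0.47 ± 0.59 (SD, n = 4) with nocodazole, and the groups overlapped. The change between conditions then had an unadjusted p of 0.126 and an adjusted p of 0.997 by limma.

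The second Polycomb complex reads that mark and ubiquitinates histone H2A. Rnf2, its ubiquitin ligase, had values on 3 arrays of each group, replicates 1, 2 and 4, which gave 0.026, -0.85 and -0.35 untreated and -0.38, 0.32 and 0.28 with nocodazole. The groups overlapped, and the 95% interval of the untreated ratio was -1.02 to 0.30. Cbx7, the chromodomain subunit known from pluripotent cells, gave 0.18, -0.16, -0.27 and -0.10 untreated and -0.038, -0.021, 0.023 and 0.024 with nocodazole. Its nocodazole values lay together near 0 and inside the untreated range. Cbx2, another chromodomain subunit, had a fitted ratio of 0.026 untreated and -0.015 with nocodazole.

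Of the heterochromatin proteins, Cbx5, a heterochromatin protein 1 that binds methylated histone H3 at repeats and the 1 tested of 2 on the array, was measured by 3 probes, with averages of 0.27, -0.21, 0.036 and -0.45 untreated and -0.046, 0.58, -0.45 and 0.59 with nocodazole. The signs were mixed in both groups, the groups overlapped, and the fitted ratio was -0.090 (95% interval -0.60 to 0.42) untreated and 0.19 (95% interval -0.35 to 0.74) with nocodazole. A probe with values on only 4 of the 8 arrays stood at 1.47, -1.50 and 1.39 on nocodazole replicates 2, 3 and 4. The other probes lay between -0.066 and 0.30 on those arrays. Cbx3, Setdb1 and Suv39h1 were not analysed here.

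Of 10 histone methyltransferases on the array 8 were tested. Suv39h2, which places that heterochromatin mark, gave 0.19, 0.77, -0.28 and -0.93 untreated and 0.12, -0.013, 0.34 and -1.30 with nocodazole. All 3 arrays with HM-1 in Cy3 were negative, and 4 of the 5 with HM-1 in Cy5 were positive. Limma's fitted ratio with nocodazole was -0.53 (95% interval -0.93 to -0.12), with an unadjusted p of 0.0186 and an adjusted p of 0.999, while the plain mean of the 4 arrays was -0.22 ± 0.74 (SD, n = 4). The lowest value, on nocodazole replicate 4, came from 1 of its 2 probes: the first stood at -2.53 and the second at -0.079. On nocodazole replicate 2 the first probe had no usable value, so the value there is that of the second alone. The second probe on its own ran from -0.49 to 0.17 over the 8 arrays.

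The other 7 methyltransferases tested were Kmt2a and Kmt2b, of the family that marks active promoters, Kmt5a and Kmt5c, which methylate histone H4, and Setd4, Setd5 and Setd7. Kmt2a had a fitted ratio of -0.032 (95% interval -0.29 to 0.23) untreated. Kmt2b stood at 3.91 and 4.56 on untreated replicates 1 and 3 but at -0.18 and -0.40 on replicates 2 and 4. Its interval of -0.21 to 4.15 was among the widest, and it rests on 1 probe. Kmt5c stood at -3.20 on untreated replicate 1 and between -0.41 and 0.56 on the other arrays, with an untreated fit of -0.73.

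Of the histone demethylases all 7 on the array were tested, and Kdm1a was not analysed here. Kdm4b, which removes the heterochromatin mark of histone H3, gave 0.039, 0.32, 0.062 and 0.22 untreated and 0.044, 0.066, 0.38 and 0.13 with nocodazole. Every array was positive and the groups overlapped. Over both conditions the fitted ratio was 0.15 (95% interval -0.026 to 0.33), with an unadjusted p of 0.0831 and an adjusted p of 0.897 by limma, so the interval included 0. Its 2 probes did not each keep the sign: the first was positive on 7 of 8 arrays, from -0.079 to 0.36, and the second ran from -0.13 to 0.59.

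Kdm5b, which removes the promoter mark placed by the Kmt2 enzymes, was measured by 3 probes, with averages of -0.43, 0.18, 0.16 and -0.19 untreated and -0.14, -0.44, -0.56 and 0.72 with nocodazole. The 1 array with HM-1 in Cy3 in the nocodazole group was positive and the other 3 were negative. This order rested on 1 probe, at -0.44, -1.47, -1.82 and 2.09 on nocodazole replicates 1 to 4. The other probes lay between -0.091 and 0.205 on those arrays. As deposited, the fitted ratio of Kdm5b was -0.071 (95% interval -0.52 to 0.38) untreated and 0.030 (95% interval -0.45 to 0.51) with nocodazole. With the Cy3 arrays turned its nocodazole ratio was -0.48, with an unadjusted p of 0.0208 and an adjusted p of 0.893 by limma. The other 5 demethylases, Kdm2a, Kdm2b, Kdm4d, Kdm5a and Kdm5c, had fitted untreated ratios as deposited between -0.13 for Kdm5a and 0.38 for Kdm4d. With the Cy3 arrays turned the 7 demethylases ran from -0.35 for Kdm5c to 0.29 for Kdm2a.

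Of 9 histone deacetylases on the array 8 were tested, with fitted untreated ratios as deposited between -0.23 for Hdac3 and 0.035 for Hdac4. With the Cy3 arrays turned they ran from -0.071 for Hdac3 to 0.35 for Hdac2. Hdac1, a catalytic subunit of the NuRD and Sin3 corepressors, gave 0.029, -0.15, -0.25 and -0.21 untreated and 0.22, -0.11, -0.36 and 0.004 with nocodazole. Its relative Hdac2 gave 0.35, 0.21, -0.33 and -0.51 untreated and 0.25, -0.040, 0.072 and 0.012 with nocodazole. Hdac2 was positive on the untreated arrays with HM-1 in Cy5 and negative on those with HM-1 in Cy3. Its fitted ratio as deposited was -0.071 (95% interval -0.36 to 0.22) untreated. With the Cy3 arrays turned it was 0.35, with an unadjusted p of 0.00901 and an adjusted p of 0.313 by limma. For Hdac1 the untreated ratio as deposited was -0.15 (95% interval -0.43 to 0.14), and in both genes the groups overlapped.

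Hdac9, a class II deacetylase best known from muscle and brain, gave 0.13, 0.061, -0.013 and -0.077 untreated and 0.68, 0.42, 0.83 and -0.042 with nocodazole. The untreated values lay near 0, 3 of the nocodazole values stood above them, and replicate 4, the 1 array of that group with HM-1 in Cy3, lay among them. Limma's fitted ratio with nocodazole was 0.38 (95% interval 0.074 to 0.68), with an unadjusted p of 0.0222 and an adjusted p of 0.999. The change between conditions was 0.35 (95% interval -0.063 to 0.77), with an adjusted p of 0.997.

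Of 17 SWI/SNF and ARID genes on the array 15 were tested, the largest family, and 10 of the 15 had a positive untreated ratio as deposited, against 7 of 15 with the Cy3 arrays turned. Over all features 6993 of 14015 were positive as deposited. Arid1a was not analysed here. Smarca4, the ATPase of the ES cell form of SWI/SNF, gave 0.040, 0.15, 0.52 and -0.35 untreated and 0.22, -0.15, -0.016 and -0.26 with nocodazole. Its signs were mixed in both groups, and the fitted ratio was 0.090 (95% interval -0.28 to 0.46) untreated and -0.081 (95% interval -0.48 to 0.32) with nocodazole.

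Smarcb1, a core subunit, had values on 3 arrays of each group, namely 0.27, 0.82 and -0.81 untreated (replicates 1, 3 and 4) and 0.15, -0.024 and 3.67 with nocodazole (replicates 1 to 3). Smarcc1, a scaffold subunit, gave 0.48, 0.16, 0.48 and -0.15 untreated and -0.037, 3.47, -0.60 and 0.62 with nocodazole. In each gene 1 nocodazole array stood far above the rest, replicate 3 for Smarcb1 and replicate 2 for Smarcc1. The Smarcc1 value came from a single probe at 7.20, while its other probe stood at -0.26 on that array. The fitted nocodazole intervals, -2.19 to 4.46 for Smarcb1 and -0.79 to 2.40 for Smarcc1, both reached past 2-fold on the positive side, and that of Smarcc1 stayed within 2-fold on the negative side.

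Arid3b, a DNA-binding ARID protein, gave 0.23, 0.60, 0.37 and 0.21 untreated and -0.62, 0.24, -0.91 and 1.63 with nocodazole. As deposited, the untreated arrays were all positive and close together, and the nocodazole averages spread over both signs and enclosed them. On nocodazole replicate 4 the first probe stood at -0.19 and the second at 3.45, and replicates 2 and 3 rest on the first alone. The first probe averaged 0.48 untreated and -0.26 with nocodazole. The mean was 0.35 ± 0.18 (SD, n = 4) untreated and 0.084 ± 1.14 (SD, n = 4) with nocodazole, and limma gave an unadjusted p of 0.334 for the untreated ratio. With the Cy3 arrays turned, limma's nocodazole ratio was -0.96, with an unadjusted p of 0.00328 and an adjusted p of 0.808. The change was then -1.02, with an unadjusted p of 0.0111 and an adjusted p of 0.899 by limma.

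Of 6 CHD remodellers on the array 5 were tested. Chd1, a remodeller linked to the open chromatin of ES cells, was even, at 0.15, -0.094, -0.084 and 0.053 untreated and -0.010, -0.25, 0.049 and -0.083 with nocodazole. Its fitted ratio was 0.007 (95% interval -0.22 to 0.24) untreated and -0.081 (95% interval -0.33 to 0.16) with nocodazole, both inside 1.5-fold. Chd6, a remodeller of the same family, gave -0.12, -0.31, -0.57 and -0.25 on the untreated arrays and 0.18, 0.089 and -0.14 on nocodazole replicates 1, 2 and 4. As deposited, the untreated values were all negative, and the lowest nocodazole value lay among them. Limma's untreated ratio was -0.31 (95% interval -0.56 to -0.062), with an unadjusted p of 0.0229 and an adjusted p of 0.755. With the Cy3 arrays turned it was 0.098, with an unadjusted p of 0.478 and an adjusted p of 0.862 by limma.

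Brd1, a scaffold of histone acetyltransferase complexes, gave 0.27, -0.048, 0.25 and 0.13 untreated and -0.035, 0.15, 0.48 and 0.75 with nocodazole. It was highest on nocodazole replicates 3 and 4, and the groups overlapped. Limma's fitted ratio with nocodazole was 0.40 (95% interval 0.072 to 0.74), with an unadjusted p of 0.0242 and an adjusted p of 0.999. With the Cy3 arrays turned that ratio was -0.18, with an unadjusted p of 0.261 and an adjusted p of 0.893 by limma. The 2 arrays highest as deposited rested on 1 of its 2 probes: the first stood at 0.94 and 1.53 there and the second at 0.015 and -0.026. The other 4 bromodomain genes tested were Brd3, Brd7, Brd8 and Brdt, with fitted untreated ratios as deposited between -0.048 for Brd8 and 0.22 for Brdt. With the Cy3 arrays turned the 5 bromodomain genes ran from -0.037 for Brd1 to 0.30 for Brd8.

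**Figure D2:**
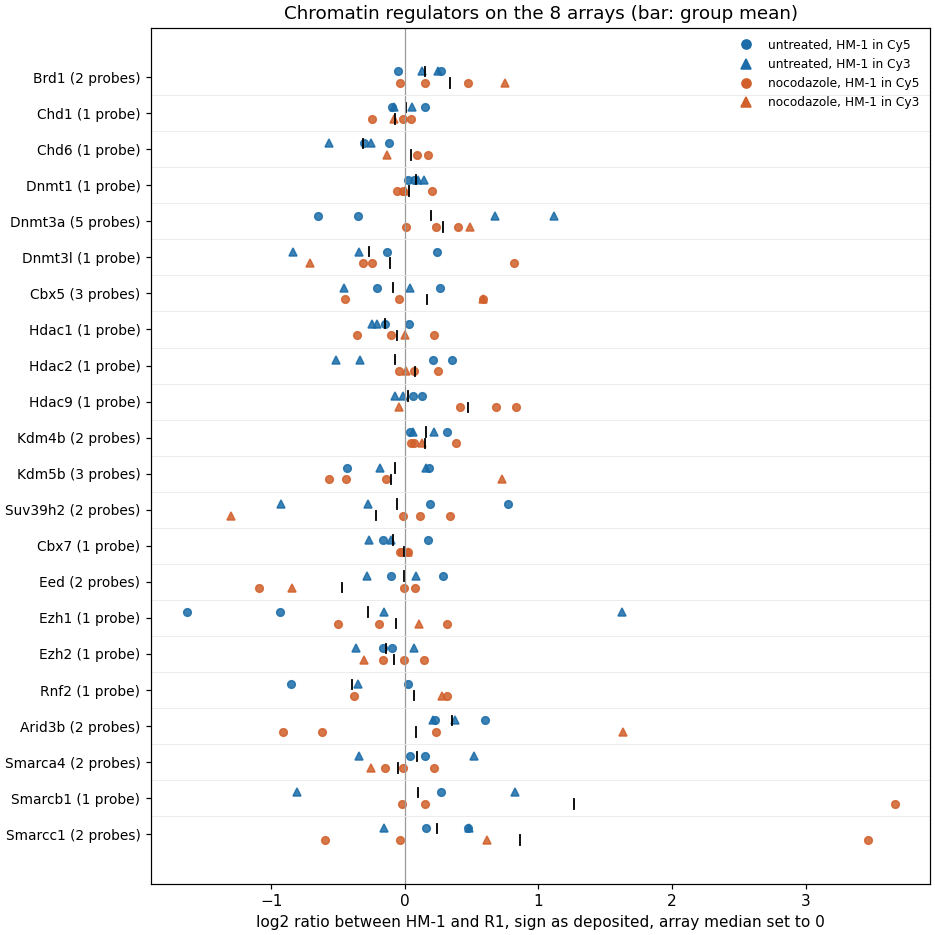
Log2 ratio between HM-1 and R1 on each array (horizontal axis, sign as deposited, array median at 0) for the 22 chromatin regulators described by array, in blue for untreated and orange for nocodazole, with circles for HM-1 in Cy5 and triangles for HM-1 in Cy3. Black bars are group means. Most values lie within 1 unit of 0, the groups overlap in every gene shown, and single arrays at 3.67 and 3.47 carry the nocodazole means of Smarcb1 and Smarcc1.

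Single values far from 0 occurred in 15 of the 58 genes. Of 456 values of the 58 genes 25 lay beyond 2-fold, 5.48%, against 10.9% of all values. Chd8, a remodeller that restrains Wnt targets, had the widest spread, from -3.63 on untreated replicate 1 to 2.15 on untreated replicate 2. As deposited, Smarcd2 stood at -3.89 on untreated replicate 1, with HM-1 in Cy5, and 1.78 on replicate 4, with HM-1 in Cy3. With the Cy3 arrays turned its untreated ratio was -2.16, with an unadjusted p of 0.00617 and an adjusted p of 0.29 by limma. The change of Smarcd2 was then 2.77, with an unadjusted p of 0.00934 and an adjusted p of 0.852 by limma. Chd8 and Smarcd2 are each carried by 1 probe, and without spot intensities the brightness behind these ratios is not known.

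Probes of a gene differed from each other about as much as arrays did. Among the 16 genes with at least 2 probes on all 8 arrays, the median absolute difference between probes on an array was 0.27 and that between arrays for the same probe 0.28. In 9 of the 16 the probes lay farther apart than the arrays. For Dnmt3a the median difference between probes was 0.65.

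**Figure D3:**
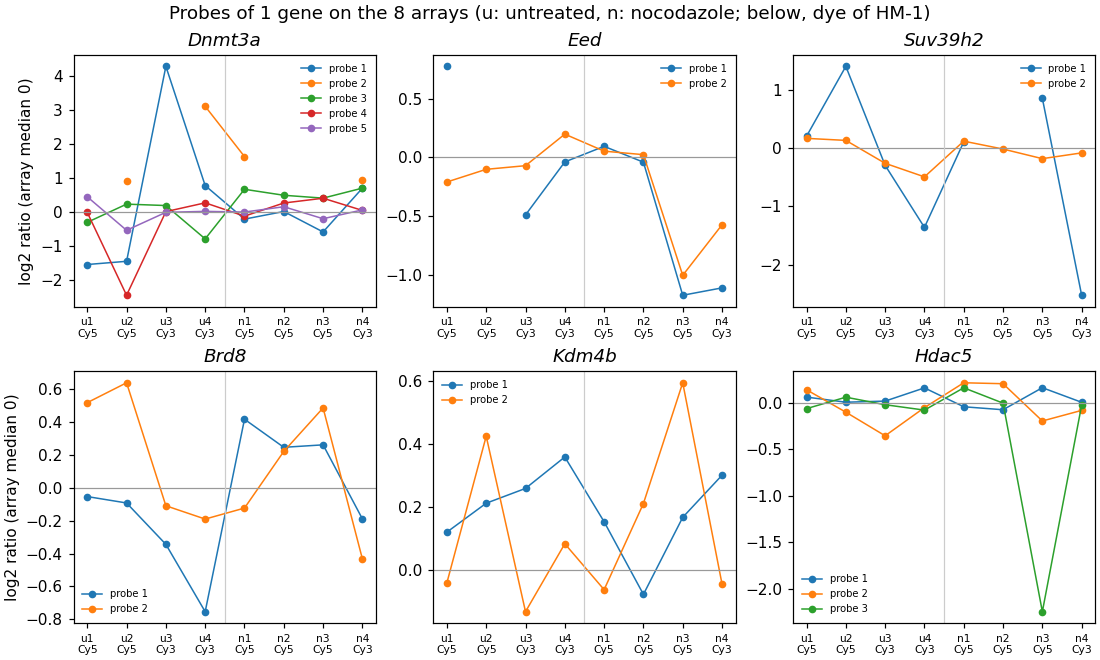
Log2 ratio of each probe (vertical axis) on the 8 arrays (horizontal axis: u for untreated, n for nocodazole, with the replicate number and the dye of HM-1) for Dnmt3a, Eed, Suv39h2, Brd8, Kdm4b and Hdac5, 1 line per probe, broken where an array gave no value. With the signs as deposited, the 2 Eed probes fall together on nocodazole replicates 3 and 4, while 1 probe alone carries the high Dnmt3a value on untreated replicate 3 and the low Hdac5 value on nocodazole replicate 3.

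The share of these genes that varied with the dye of HM-1 was near that of all features. In limma's dye term, the difference between arrays with HM-1 in Cy5 and in Cy3, 6 of the 58 genes had an unadjusted p under 0.05, or 10.3%, against 9.16% of features, and 0 of 58 passed after adjustment, against 0% of features. Among these 6, Suv39h2, Brd8, Brd7 and Kdm5a had the higher mean with HM-1 in Cy5, and Dnmt3a and Kdm5c with HM-1 in Cy3. For Suv39h2 the mean was 0.28 with HM-1 in Cy5 and -0.84 with HM-1 in Cy3, and for Dnmt3a -0.072 and 0.76. Over all features, pairs of arrays with the same dye of HM-1 correlated at Pearson's r between 0.016 and 0.23 and pairs of opposite dye between -0.18 and 0.006, a description over features that share the arrays. Over the chromatin regulators alone the 13 pairs of the same dye ran from -0.50 to 0.41, with a median of 0.10, and the 15 pairs of opposite dye from -0.61 to 0.53, with a median of 0.15. Single large values weigh heavily on r over so few genes. On the pair at 0.53 Kmt2b stood at 3.91 and 4.56, and on the pair at -0.61 Chd8 stood at 2.15 and -3.22. These r values therefore cannot tell whether the chromatin regulators follow the order of all features. An effect of the dye and an unturned direction of the ratio cannot be told apart from these labels.

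**Figure D4:**
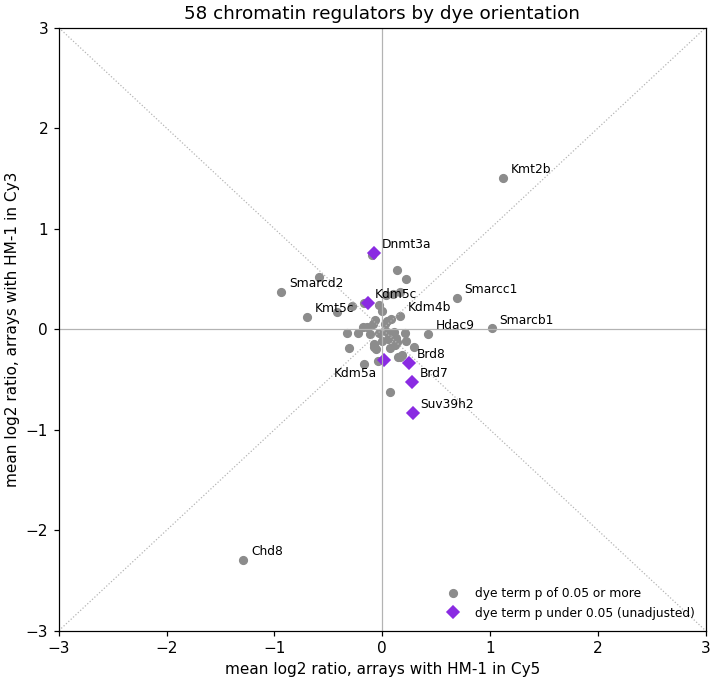
Mean log2 ratio of each of the 58 chromatin regulators on the 5 arrays with HM-1 in Cy5 (horizontal axis) and on the 3 arrays with HM-1 in Cy3 (vertical axis); diamonds mark the 6 genes whose dye term had an unadjusted p under 0.05. Genes on the rising diagonal keep their ratio in both orientations and genes on the falling diagonal turn it, as Suv39h2, Brd7 and Brd8 do.

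Because the direction is not stated, the 3 arrays with HM-1 in Cy3 were also read with their sign turned. In that reading limma again called 0 of 58 genes at an adjusted p under 0.05 in each of the 4 comparisons, where 0% of features were called. At an unadjusted p under 0.05 it gave 9 of 58 untreated (10.5% of features), 6 of 58 with nocodazole (5.13%), 11 of 58 over both conditions (10.5%) and 5 of 58 for the change (4.94%). A single sign on every array was held by 2 genes, Brd8 and Hdac9, or 3.45%, against 3.67% of features. On every untreated array it was held by 13, or 22.4%, against 21.9%.

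Dnmt3a had the lowest p in the turned reading. Its values on the untreated arrays were then all negative, with a mean of -0.70 ± 0.32 (SD, n = 4), and limma gave an unadjusted p of 0.000982 and an adjusted p of 0.166. As deposited, the first of its 5 probes stood at 4.27 on untreated replicate 3. The second, with values on 4 of the 8 arrays, stood at 3.10 on untreated replicate 4. The other probes lay between -0.006 and 0.19 on replicate 3 and between -0.78 and 0.78 on replicate 4. With nocodazole the turned mean of Dnmt3a was 0.037 ± 0.39 (SD, n = 4), and the change had an adjusted p of 0.902. Brd8, a subunit of a histone acetyltransferase complex, lay between 0.15 and 0.47 on all 8 arrays once turned, with a fitted ratio over both conditions of 0.29 ± 0.064 (SE) and an adjusted p of 0.294 by limma. In that reading neither of its 2 probes kept 1 sign. The first stood at -0.053 and -0.092 on untreated replicates 1 and 2, and the second at -0.12 on nocodazole replicate 1. Suv39h2 was then positive on 7 of 8 arrays, with a fitted ratio over both conditions of 0.56 ± 0.15 (SE) and an adjusted p of 0.326. None of these ratios passed the adjusted threshold in either reading.

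Chromatin genes outside the rule were examined in the same fit. From 8 lists of other Polycomb, DNA methylation, corepressor, acetyltransferase, sirtuin, histone methylation, remodeller and histone chaperone genes, 95 genes were tested and 0 passed limma's adjusted threshold in any comparison. At an unadjusted p under 0.05 there were 4 positive and 3 negative in untreated cells, 4 and 4 with nocodazole, 4 and 4 over both conditions, and 2 and 0 for the change. These make 7.37%, 8.42%, 8.42% and 2.11% of the 95, against 6.33%, 2.91%, 5.59% and 3.33% of all features. With the Cy3 arrays turned they numbered 8, 9, 8 and 7 of the 95, against 10.5%, 5.13%, 10.5% and 4.94% of features. By list and as deposited, the other Polycomb genes had a median untreated ratio of 0.12 over 15 genes, the DNA methylation genes -0.045 over 10, the NuRD and Sin3 genes -0.084 over 12 and the acetyltransferases -0.032 over 12. The sirtuins had a median of -0.009 over 4, the other histone methylation genes 0.006 over 20, the other remodellers -0.072 over 13 and the histone chaperones -0.018 over 13.

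Of these 95 genes 3, or 3.16%, kept 1 sign on all 8 arrays, against 0.913% of all features. Phf19, an accessory subunit that recruits the Ezh2 complex, was negative throughout, at -0.20, -0.48, -0.33 and -0.44 untreated and -0.56, -0.18, -0.55 and -0.57 with nocodazole. The values of both groups and of both dye orientations overlapped. Limma's ratio over both conditions was -0.42 (95% interval -0.61 to -0.24), with an unadjusted p of 0.00115 and an adjusted p of 0.894. Bmi1, a subunit of the Polycomb complex that holds Rnf2, was positive throughout, from 0.056 to 1.79, and Mbd3, a NuRD subunit that tempers pluripotency genes, from 0.047 to 0.91. Each of the 3 rests on 1 probe, and with the Cy3 arrays turned each has both signs.

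Markers of other cell types that an ES culture can hold were also measured. Of 20 markers of primitive and parietal endoderm 13 were tested, 10 of them with a negative untreated ratio, and their median was -0.58. Their median by array ran from -0.78 to -0.094 untreated and from -0.82 to -0.59 on nocodazole replicates 2, 3 and 4, but stood at 0.10 on nocodazole replicate 1. For 17 of 20 feeder fibroblast markers the median untreated ratio was -0.31, with array medians from -0.31 to -0.19 untreated and from -0.33 to 0.31 with nocodazole. For 10 of 20 pluripotency markers it was 0.18, and for 15 of 20 mitotic genes -0.16. With the Cy3 arrays turned the untreated medians of the 4 lists were 0.027, 0.022, 0.054 and 0.003, in the same order. A ratio gives no level, so the identity of the cells cannot be read from it. Whether such cells differed between the lines, and the part that had in the ratios above, was not tested.

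Across the arrays the number of values ran from 17928 to 19445 of 20355 probes. Nocodazole replicate 3 had the widest spread over features, with a standard deviation of 1.10, and the other 7 arrays ran from 0.58 to 0.77. The number of arrays limits the precision of every value here.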

How the data were processed

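The authors' deposited table holds 1 log2 ratio per probe and array for 20355 probes of a 2-colour cDNA array. Neither the software, background correction and normalization nor the numerator behind these log2 values is given in the sources used here, and spot intensities were not used here. Deposited values beyond 10 on the log2 scale, taken as codes for a missing channel, were set to missing (74 to 203 per array, 6 at the probes of these genes). Each array was centred on its median. Symbols came from the platform's annotation, which gave 14030 probes 1 symbol, 5 probes several and 6320 none. Probes of 1 symbol were averaged, and features with at least 3 values in each group were tested.

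Limma (version 3.58.1, R 4.3.3) was fitted with lmFit and eBayes over all 8 arrays, with a coefficient per condition, a dye term and no block. Tests were two-sided, and Benjamini-Hochberg adjusted p-values under 0.05 counted as calls. The procedure was tested on simulated data. Means with an SD are given with the number of arrays behind them. Chd6, Chd8, Kdm4d and Smarcd2 had values on 7 arrays, Rnf2 and Smarcb1 on 6, and the other tested members on all 8. The depth of signal is unknown.

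Genes described by array were those of a panel of 29 (18 tested, 3 with too few values, 8 not analysed here), those with an unadjusted p under 0.05 in a comparison and those with 1 sign on every array, 22 in all. Other genes are named with values that were picked after being seen, as ends of a range or for a large spread. The members, panel and lists were chosen with earlier results of these data known. Alternatives changed centring, scaling, the handling of codes and probes, the minimum number of values, the dye term, a replicate block, weights and the arrays included.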

Additional observations from a re-analysis of the deposited data

Results flagged for a closer look

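In 6 of the 108 groups of 4 arrays that could be examined among the 58 chromatin regulators, 1 array stood apart from the other 3 by Dixon's test at the 95% level. Chance sets about 1 in 20 groups apart. Cbx2 stood at 0.45 on nocodazole replicate 1, and the other 3 nocodazole arrays lay between -0.096 and -0.052. The other 5 were all on nocodazole replicate 3, the array with the widest spread over all features. Hdac5 stood there at -0.76, against -0.035 to 0.11 on the others, and 1 of its 3 probes held the low value. Kmt2b stood at 1.35, against 0.19 to 0.36. Setd4 stood at -0.43, against 0.046 to 0.13, and Setd5 at -0.40, against 0.016 to 0.080. Smarcc2 stood at -0.45, against 0.049 to 0.11. In Setd5 and Smarcc2 also 1 probe held the low value. The Setd5 probes stood at 0.039 and -0.85 on that array, and the Smarcc2 probes at 0.080, 0.565 and -2.01.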

How the results depend on the processing

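Across 21 alternatives and the 4 comparisons, limma called 0 of the chromatin regulators at an adjusted p under 0.05 in 84 of 84 counts. The count at an unadjusted p did move: from 0 to 9 genes untreated (1 as reported, features 5.42% to 10.5%), 1 to 6 with nocodazole (5, features 2.55% to 5.39%), 1 to 11 over both conditions (3, features 4.03% to 10.5%) and 0 to 5 for the change (0, features 2.92% to 4.94%), with the highest untreated, combined and change counts in the reading that turns the Cy3 arrays. Of 1832 values of the 22 genes described by array, 166 changed sign, 50 of them among the 88 with the Cy3 arrays turned, and 0 passed the threshold. With the replicate block limma called 0 genes at an adjusted p and, at an unadjusted p, 3 untreated (7.92% of features), 1 with nocodazole (4.82%), 1 over both conditions (6.76%) and 1 for the change (4.4%). Arrays of the same number shared little: their deviations correlated at 0.14, 0.038, -0.051 and 0.13, so the numbers were not taken as pairs. The number of arrays and the unknown spot brightness limit what these ratios can show.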
